A study of Homo sapiens with 8 samples.

Results

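The matrix metalloproteinase (MMP) cluster of chromosome 11 was followed by its 9 MMP genes, MMP7, MMP20, MMP27, MMP8, MMP10, MMP1, MMP3, MMP12 and MMP13, and by WTAPP1, the gene that overlaps MMP1 and MMP3 on the opposite strand. These 10 genes were picked by symbol from the 27945 genes of the count table. Nascent RNA was measured by fastGRO-seq, a nuclear run-on assay in which RNA being made by engaged polymerases is labelled, captured and sequenced, in IMR90 cells, diploid fibroblasts of embryonic human lung. The study asked how METTL3 and METTL14, the core of the m6A RNA methyltransferase complex, bear on transcription in senescent cells. There were 4 groups of 2 libraries. The control group holds IMR90 cells without induced senescence, for which the labels name neither a hairpin nor an inducer. The other groups hold cells made senescent through an inducible fusion of the estrogen receptor with oncogenic H-RAS (ER:RAS). By the general protocol of the study the fusion is switched on with 100 nM 4-hydroxytamoxifen (4-OHT), and cells are harvested on day 6 for checks of RAS and of senescence markers. The protocol names no day for the fastGRO-seq libraries. The senescent cells bore a control hairpin (Sen shControl) or a hairpin against METTL3 (Sen shMETTL3) or METTL14 (Sen shMETTL14). The methods name a single lentiviral hairpin for each of METTL3 and METTL14, so a hairpin and its target cannot be told apart, and control and Sen shControl cells may differ in the hairpin as well as in senescence.

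MMPs are zinc-dependent enzymes that cut the extracellular matrix and are made as inactive proenzymes. MMP1, MMP8 and MMP13 are collagenases, MMP3 and MMP10 are stromelysins that cut proteoglycans and other matrix proteins and can activate other proMMPs, MMP12 is the elastase of macrophages, MMP7 is matrilysin, and MMP20 is the enzyme of developing tooth enamel. MMP1 and MMP3 are well known members of the senescence-associated secretory phenotype (SASP) of fibroblasts. WTAPP1 is a pseudogene of WTAP, a subunit of the m6A methyltransferase complex.

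In hg19 the 10 genes cover 435.224 kb, and the MMP genes all lie on the minus strand. From MMP10 to MMP12 the cluster is 104.531 kb long. MMP10 lies at chr11:102641233-102651359, MMP1 at chr11:102660641-102668966, MMP3 at chr11:102706528-102714420 and MMP12 at chr11:102733460-102745764. MMP8, at chr11:102582526-102595685, is 45.548 kb from MMP10, and MMP13, at chr11:102813721-102826463, is 67.957 kb from MMP12. Further out lie MMP27 at chr11:102562415-102576468, MMP20 at chr11:102447566-102496063 and MMP7 at chr11:102391239-102401484. WTAPP1 is the only gene of the 10 on the plus strand, at chr11:102654407-102707497. Reads were counted over whole gene bodies, introns included. Exons of the GENCODE transcript made up 23.7% of the counted span of MMP1, 23.1% of that of MMP3, 17.4% of that of MMP10 and 14.8% of that of MMP12.

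RefSeq promoter sequences (GRCh38.p14, 250 bases before to 50 after the start) were at hand for 5 of the 10 genes, MMP7, MMP8, MMP10, MMP20 and MMP27. MMP promoters are known for a TATA box and a nearby site for AP-1, the FOS and JUN factor that acts downstream of RAS. The 3 promoters that held the AP-1 word TGANTCA are shown, each 5′ to 3′ on the minus strand with AP-1 and TATA box (TATAAA) matches in capitals, because they set a gene that rose in senescence, MMP10 at chr11:102780579-102780878, beside a pair of genes that stayed at a few counts, MMP7 at chr11:102530698-102530997 and MMP20 at chr11:102625283-102625582.
MMP10: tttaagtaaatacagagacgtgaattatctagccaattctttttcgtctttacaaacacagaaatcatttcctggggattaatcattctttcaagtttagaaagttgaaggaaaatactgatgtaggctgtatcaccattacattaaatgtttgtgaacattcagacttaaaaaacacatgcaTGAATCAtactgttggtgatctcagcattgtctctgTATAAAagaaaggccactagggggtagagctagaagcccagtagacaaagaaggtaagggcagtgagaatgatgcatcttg
MMP7: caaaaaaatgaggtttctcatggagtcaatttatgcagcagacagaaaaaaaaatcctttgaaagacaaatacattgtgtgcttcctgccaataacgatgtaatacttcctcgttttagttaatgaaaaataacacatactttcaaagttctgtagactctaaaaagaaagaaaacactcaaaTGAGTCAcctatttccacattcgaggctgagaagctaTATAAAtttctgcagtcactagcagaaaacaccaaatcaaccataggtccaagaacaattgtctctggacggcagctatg
MMP20: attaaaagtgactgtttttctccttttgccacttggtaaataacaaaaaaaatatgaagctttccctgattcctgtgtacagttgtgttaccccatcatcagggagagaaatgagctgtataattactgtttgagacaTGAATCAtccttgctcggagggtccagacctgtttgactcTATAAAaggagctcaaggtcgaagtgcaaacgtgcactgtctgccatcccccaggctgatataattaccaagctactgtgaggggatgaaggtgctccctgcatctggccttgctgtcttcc
The AP-1 word began 67 bases before the start in both MMP10, as TGAATCA, and MMP7, as TGAGTCA, and 112 bases before the start in MMP20. TATAAA began 31 bases before the start in MMP10, 30 in MMP7 and 72 in MMP20. The promoter of MMP8 held TATAAA 110 bases before its start and no AP-1 word, and that of MMP27 held neither. Over 27305 promoters of this length, searched on both strands, 7.76% held the AP-1 word and 12% held TATAAA. The PEA3 word AGGAAG was found in MMP7 alone of the 5, against 33.7% of all promoters, and the NF-kB motif in none of the 5, against 10.8%. Among these 5 promoters an AP-1 word was present in that of MMP10, which rose, and in those of MMP7 and MMP20, which stayed near 0. The promoters of MMP1, MMP3 and MMP12, which also rose, were not at hand, and the part of AP-1 was not tested. These matches describe letters in a window and not bound sites.

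The libraries held 14897360 to 20306299 counts, of which 86.2% to 92.5% lay in 21 rows of ribosomal RNA, leaving 1513930 to 2048475 counts for other genes. METTL3 was lower under its hairpin, with 77 and 47 counts in Sen shControl libraries, 16 and 19 in Sen shMETTL3 libraries and a log2 fold change of -2.04 (standard error 0.31, edgeR adjusted p = 1.79e-05). METTL14 had 60 and 55 counts in control and 24 and 28 in Sen shControl, where it was called lower (log2 fold change -0.76, edgeR adjusted p = 0.0472). It had 18 and 14 in Sen shMETTL14, and the difference from Sen shControl did not pass the test (log2 fold change -0.86, standard error 0.34, edgeR adjusted p = 0.0763). These counts are of nascent RNA, not of mature RNA or protein, so they do not measure how far the knockdowns went. For the knockdowns the paper refers to a western blot. Counts of the 8 fibroblast markers checked, such as COL1A1, FN1 and VIM, summed to 16617 to 47783 per library, against 23 to 77 for 6 epithelial, 24 to 69 for 8 myeloid and 16 to 133 for 5 endothelial markers. The fibroblast sum itself moved with the groups, from 45282 and 47783 in control to 25732 and 28584 in Sen shControl, 30726 and 33460 in Sen shMETTL3, and 16617 and 18744 in Sen shMETTL14. Of the 8 markers, 5 were called lower and 1 higher in senescence, beside 13.3% of all genes tested in each direction. After METTL3 knockdown 2 were lower and 1 higher, beside 11.2% and 12.3% of all genes. After METTL14 knockdown 7 were lower and none higher, beside 12% and 9.15%. Genes that mark senescence and the inducing oncogene moved as well. HRAS had 388 and 386 counts in control, 511 and 527 in Sen shControl, 390 and 349 in Sen shMETTL3, and 758 and 609 in Sen shMETTL14. It was called higher in Sen shControl than in control (log2 fold change 0.81) and lower in Sen shMETTL3 than in Sen shControl (-0.70, edgeR adjusted p = 0.000536), and its difference between Sen shMETTL14 and Sen shControl did not pass the test (0.23, edgeR adjusted p = 0.242). LMNB1, the lamin lost in senescence, had 83 and 83 counts in control, 11 and 15 in Sen shControl, 2 and 0 in Sen shMETTL3, and 5 and 2 in Sen shMETTL14. It fell by 2.28 on the log2 scale in senescence. Against Sen shControl it was called lower still in Sen shMETTL3 (-3.76, edgeR adjusted p = 0.000622) and Sen shMETTL14 (-2.02, edgeR adjusted p = 0.0156). With so few counts in the knockdown libraries, the sizes of these further falls are uncertain. CDKN1A, the cell cycle inhibitor p21, rose by 1.12 in senescence and by a further 1.01 in Sen shMETTL14. Its difference between Sen shMETTL3 and Sen shControl did not pass the test (-0.28, edgeR adjusted p = 0.169). CCNA2, the cyclin A gene, had 23 and 14 counts in control, 6 and 10 in Sen shControl, 3 and 5 in Sen shMETTL3, and 0 and 2 in Sen shMETTL14. It was called lower in Sen shMETTL14 than in Sen shControl (-3.01, edgeR adjusted p = 0.0228) and lower than in control in Sen shMETTL3 (-2.01, edgeR adjusted p = 0.0119) and Sen shMETTL14 (-3.83, edgeR adjusted p = 0.000489), but not in Sen shControl (-0.82, edgeR adjusted p = 0.301). The part of these moves in the results on the cluster was not tested. In such bulk libraries, fewer cells that transcribe a gene and less transcription per cell cannot be told apart.

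In control cells the cluster was almost silent apart from MMP1. It had 80 and 68 counts in the control libraries, MMP3 had 2 and 3, and MMP10, MMP12, MMP7, MMP8, MMP13 and MMP27 had none, while MMP20 had 0 and 1. A count of 0 allows up to 3 counts per library, which is 2.62 normalized counts in control libraries, so for these genes transcription was not detectable at this depth. The 9 MMP genes together took 0.00440% and 0.00378% of the counts outside ribosomal RNA rows.

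In senescent cells with shControl the 9 MMP genes together took 0.996% and 0.904% of those counts. MMP1, the interstitial collagenase, had 9228 and 8617 counts. MMP3 had 5581 and 5385 counts, from its 2 and 3 in control libraries. MMP10 had 233 and 223 counts, and MMP12 had 39 and 28, against none in either control library. For each of these 4 genes, both Sen shControl libraries were above both control libraries, which was so for 31.5% of all genes tested. Set on a scale per length, the normalized counts per kb (all n = 2, with SD) were 1225 ± 111 for MMP1, 794 ± 53.9 for MMP3, 25.7 ± 1.90 for MMP10 and 3.12 ± 0.855 for MMP12. The 4 genes kept this order in both libraries, and no neighbours in the order overlapped. By level per kb MMP1 ranked 3 and MMP3 ranked 8 among 11505 tested protein-coding genes, from 1099 and 10527 in control cells, and MMP10 ranked 355 and MMP12 3311.

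**Figure D1:**
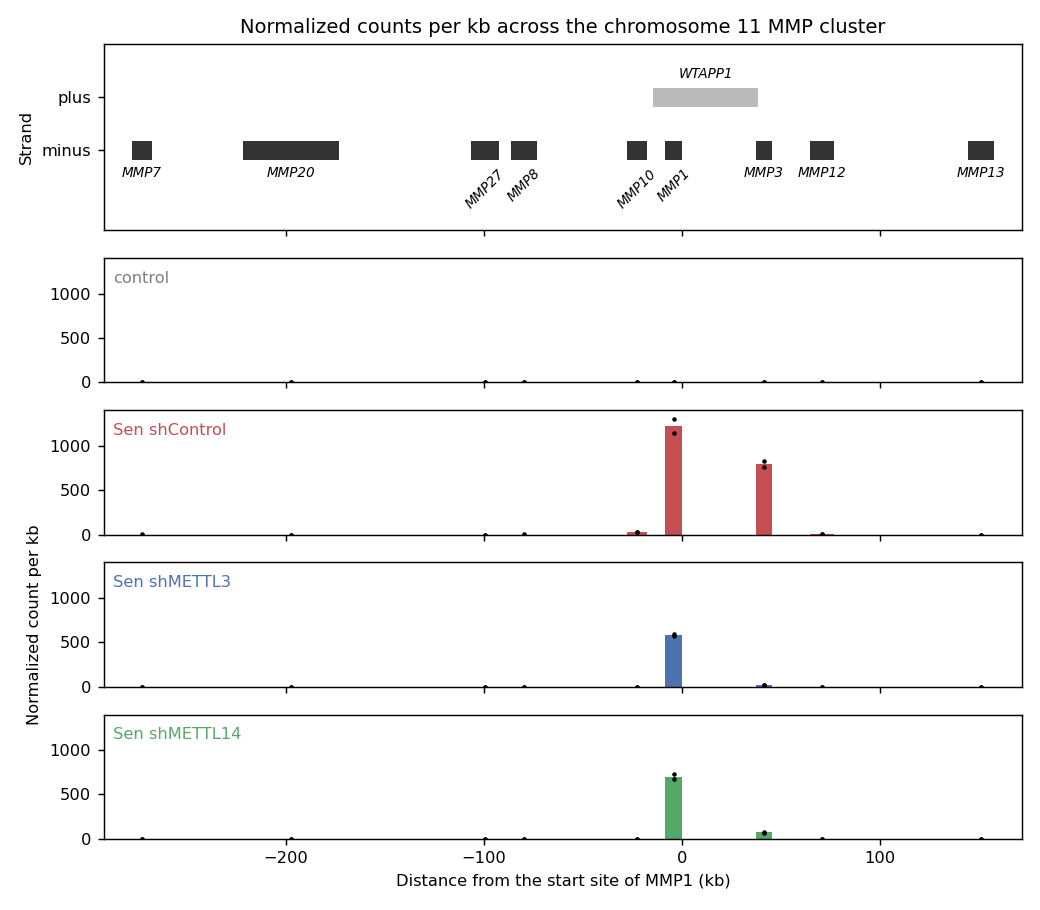
The top panel places the 10 genes by strand and by distance in kb from the start site of MMP1, and the lower panels give normalized counts per kb for the 9 MMP genes in each group on a shared linear axis (bars, mean of 2 libraries; points, libraries). MMP1 and MMP3 stand at 1225 and 794 in Sen shControl, and MMP1 alone stays high, at 587 and 700, in Sen shMETTL3 and Sen shMETTL14.

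Only 5 of the 10 genes, MMP1, MMP3, MMP10, MMP12 and WTAPP1, had enough counts to be tested. MMP3, MMP10 and MMP12 reached the filter through the senescent libraries, so that all 5 tested genes rose is not support in itself. Among all 12844 genes tested, 13.3% were called higher in Sen shControl than in control cells. The normalized count of MMP1 rose 157-fold (log2 fold change 7.30, standard error 0.19, edgeR adjusted p = 3.34e-21), from 64.7 ± 8.18 to 10199 ± 928 (SD, n = 2). MMP3 rose from 2.18 ± 0.592 to 6265 ± 426 normalized counts (SD, n = 2), with a log2 fold change of 11.41 (standard error 0.26) and an edgeR adjusted p of 5.83e-22. Since control libraries held 2 and 3 counts of MMP3, the ratio of 2864 has an exact 95% counting interval of 1227 to 8821. MMP10, the other stromelysin, rose at least 99.4-fold against a floor of 3 counts per library (edgeR adjusted p = 1.73e-14), and MMP12, the metalloelastase, rose at least 14.7-fold (edgeR adjusted p = 8.55e-07). The intervals and floors cover counting error only.

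MMP12 is best known from macrophages, so the myeloid markers were looked at beside it. The myeloid list summed to 24 and 25 counts in control and 69 and 56 in Sen shControl, most of them from CD68, a lysosomal protein. CD68 itself was called higher in Sen shControl than in control, with 60 and 45 counts against 17 and 16 (log2 fold change 2.05, standard error 0.33, edgeR adjusted p = 2.55e-05), and lower in Sen shMETTL3, with 42 and 26 counts (-0.84, edgeR adjusted p = 0.0401), the same directions as MMP12. In Sen shMETTL14 it had 49 and 42 counts, a difference from Sen shControl that did not pass the test (-0.37, edgeR adjusted p = 0.390). MPO had no count in any library, PTPRC had 0 and 2 counts in control and 3 and 1 in Sen shControl, CSF1R had 6 and 3 against 1 and 6, and LYZ had 0 and 0 against 4 and 0. CD14 had 0 and 2 counts in both groups, ITGAM had 1 and 1 against 1 and 0, and SPI1 had 0 and 1 against 0 and 2. The part of myeloid cells in the MMP12 counts was not tested.

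MMP7, MMP8, MMP13, MMP20 and MMP27 were not tested. They had 6, 11, 2, 5 and 0 counts over all 8 libraries. No library held more than 6 counts of any of them, a value reached by MMP8, the neutrophil collagenase, in a Sen shMETTL3 library. Together they had 0 to 7 counts per library. The genes with counts in senescence were therefore the neighbours MMP10, MMP1, MMP3 and MMP12, while the genes on both sides of them, MMP8 and MMP13, stayed near 0.

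**Figure D2:**
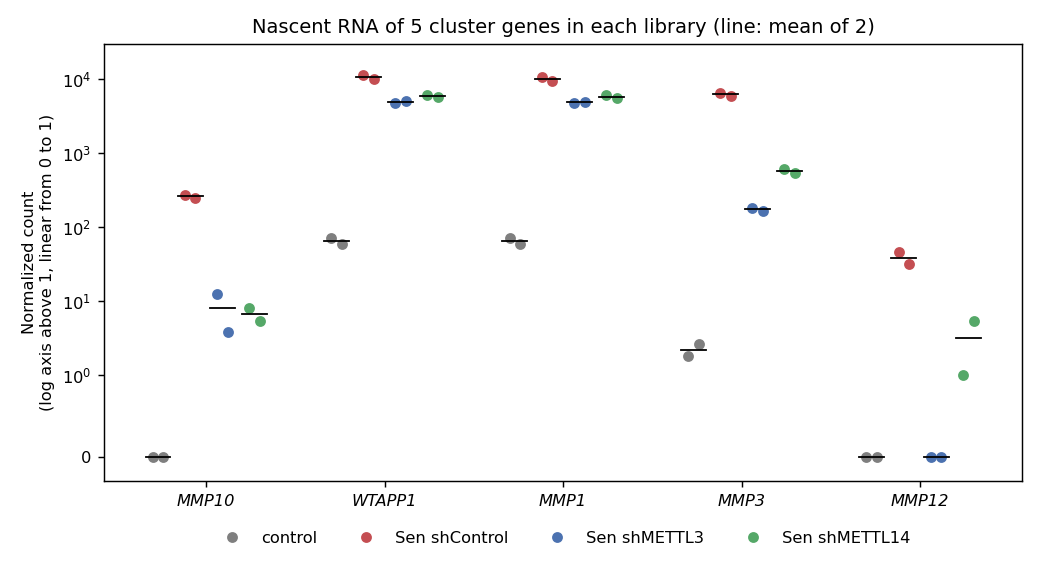
Normalized counts of the 5 tested genes in each of the 8 libraries, in chromosome order (points, libraries; lines, group means; axis logarithmic above 1). The group means of MMP1 and WTAPP1 are 4884 or more in both knockdowns, whereas that of MMP3 falls from 6265 to 173 and 565, and those of MMP10 and MMP12 fall to 8.02 or less.

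METTL3 knockdown lowered the tested genes of the cluster by very different amounts. The 5 tested genes were called lower in Sen shMETTL3 than in Sen shControl cells, as were 11.2% of all genes tested. MMP10 and MMP12 passed the filter through the Sen shControl libraries and WTAPP1 shares its reads with MMP1, so this count is not support in itself. MMP1 had 4695 and 5266 counts and was 2.08-fold lower (log2 fold change -1.06, standard error 0.14, edgeR adjusted p = 1.89e-06). MMP3 had 179 and 173 counts and was 36.2-fold lower (counting interval 32.6 to 40.4, log2 fold change -5.18, standard error 0.16, edgeR adjusted p = 2.24e-18). MMP10 had 12 and 4 counts and was 33.1-fold lower (interval 20.2 to 58.5, log2 fold change -5.03, edgeR adjusted p = 4.64e-12). Its log2 fold change was -6.08 without Sen shMETTL3 replicate 1 and -4.42 without replicate 2. MMP12 had no count in either Sen shMETTL3 library and was at least 13-fold lower (edgeR adjusted p = 3.39e-06). In every case both knockdown libraries were below both Sen shControl libraries, as they were for 30.6% of all genes tested. The size of the fall of MMP1 depended on the normalization. With library size alone, a scaling that moved the median of all genes from -0.03 to 0.58 on the log2 scale, the log2 fold change of MMP1 was -0.44 and still passed the test (edgeR adjusted p = 0.00345), while that of MMP3 was -4.56.

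METTL14 knockdown gave a similar split. The 5 tested genes were again called lower than in Sen shControl cells, as were 12% of all genes tested, and the same limit of the filter and of WTAPP1 holds for this count. MMP1 had 6076 and 5348 counts and was 1.75-fold lower (log2 fold change -0.81, standard error 0.14, edgeR adjusted p = 7.67e-05). MMP3 had 604 and 505 counts and was 11.1-fold lower (interval 10.4 to 11.8, log2 fold change -3.47, standard error 0.15, edgeR adjusted p = 3.47e-15). MMP10 had 8 and 5 counts and was 39.2-fold lower (interval 22.7 to 74.2, edgeR adjusted p = 3.79e-12). MMP12 had 1 and 5 counts (log2 fold change -3.59, standard error 0.61, edgeR adjusted p = 0.000113). Its log2 fold change was -2.86 without Sen shMETTL14 replicate 1 and -5.11 without replicate 2. For each of them both knockdown libraries were below both Sen shControl libraries, as they were for 32.1% of all genes tested. With library size alone, under which the median over all genes was 0.35, the log2 fold change of MMP1 was -0.45 (edgeR adjusted p = 0.00494). Both knockdown comparisons share the Sen shControl libraries, so their agreement in direction is not independent.

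**Figure D3:**
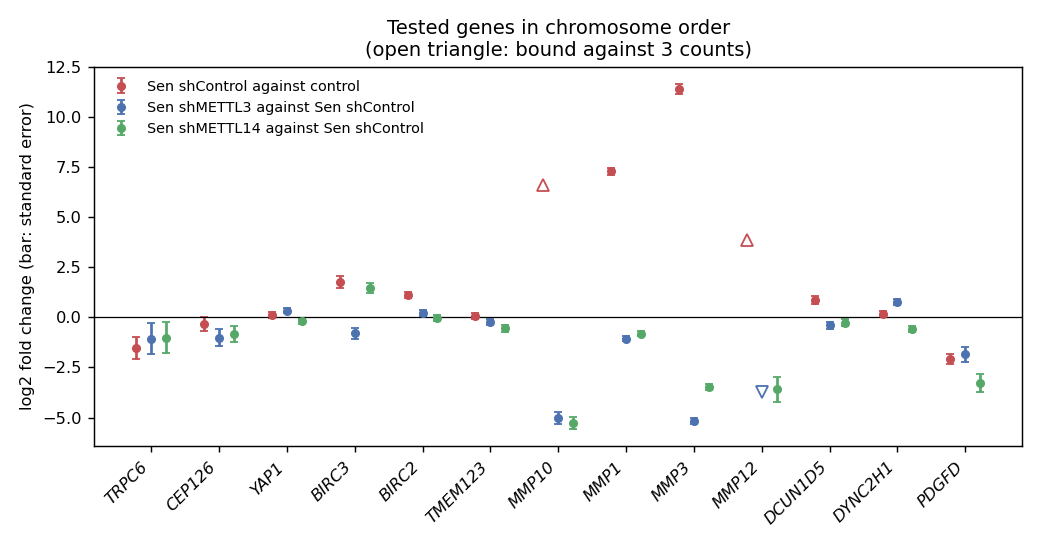
Log2 fold changes (points, with standard errors) of tested cluster genes except WTAPP1 and of tested genes within 1000 kb of the cluster, in chromosome order but not to scale; open triangles are bounds against a floor of 3 counts. MMP3 stands at 11.41 in senescence, and the falls of MMP10 and MMP3 by METTL3 knockdown, to -5.03 and -5.18, are larger than that of MMP1, to -1.06.

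The share of the senescent rise that was left separated MMP1 from its neighbours. Taking the difference between Sen shControl and control means as the whole rise, MMP1 kept 46.7% and 48.5% in the Sen shMETTL3 libraries and 59.0% and 54.7% in the Sen shMETTL14 libraries. MMP3 kept 2.88% and 2.58% after METTL3 knockdown and 9.56% and 8.42% after METTL14 knockdown. MMP10 kept 4.70% and 1.45%, then 3.05% and 2.01%, and MMP12, at 0 counts after METTL3 knockdown, which allows up to 7.67% per library, kept 2.59% and 13.6% after METTL14 knockdown. The lowest share of MMP1 in any knockdown library was thus above the highest share of MMP3, MMP10 or MMP12. The size of the share of MMP1 depends on the normalization. With counts divided by library size alone it was 67.3% and 79.6% after METTL3 knockdown and 79.4% and 66.5% after METTL14 knockdown, while MMP3 kept 4.14% and 4.22%, then 12.8% and 10.2%, and MMP12 at most 16.7%.

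The balance between the collagenase and the stromelysin shifted accordingly. In Sen shControl libraries MMP1 gave 61.2% and 60.4% of all counts in the 9 MMP genes, and MMP3 gave 37% and 37.8%. MMP1 rose to 96.0% and 96.6% of the MMP counts in Sen shMETTL3 libraries and to 90.8% and 91.2% in Sen shMETTL14 libraries. In control libraries it gave 97.6% and 94.4%, of only 82 and 72 counts (exact binomial 95% intervals 91.5% to 99.7% and 86.4% to 98.5%). There were 1.65 and 1.60 MMP1 counts for each MMP3 count in Sen shControl, 26.2 and 30.4 in Sen shMETTL3, and 10.1 and 10.6 in Sen shMETTL14. This ratio is taken within a library and does not depend on the normalization. The mean log2 ratio was 4.12 higher in Sen shMETTL3 and 2.67 higher in Sen shMETTL14 than in Sen shControl. The groups did not overlap, but with 2 libraries a group the exact two-sided permutation test cannot go below p = 0.333, the value it gave for both.

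**Figure D4:**
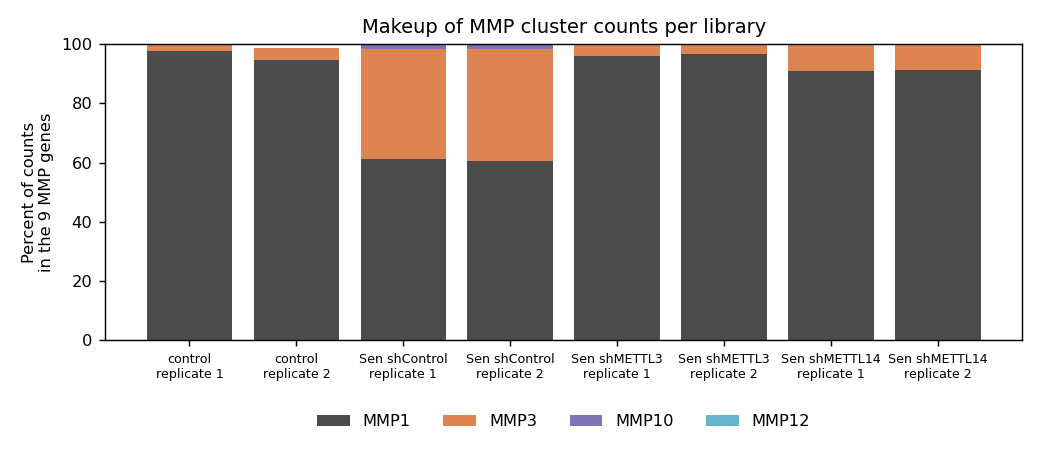
Stacked bars give the percent of counts in the 9 MMP genes taken by MMP1, MMP3, MMP10 and MMP12 in each library. MMP3 takes 37% and 37.8% in Sen shControl libraries and at most 9.03% in all other libraries.

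Even after knockdown, MMP1, MMP3 and MMP10 stayed above the level of control cells, in which senescence had not been induced. In Sen shMETTL3 against control cells, 4 tested genes were called higher, beside 20.1% of all genes tested. MMP1 was 75.6-fold higher (log2 fold change 6.24, edgeR adjusted p = 1.19e-19), and MMP3 was 79.1-fold higher with a counting interval of 33.6 to 245. MMP10 was at least 3.06-fold higher (edgeR adjusted p = 0.000423). This bound was 1.44-fold without Sen shMETTL3 replicate 1 (edgeR adjusted p = 0.0112) and 4.67-fold without replicate 2 (edgeR adjusted p = 4.26e-05). MMP12 was at 0 in all 4 libraries, so no fold is given. In Sen shMETTL14 against control cells, 5 tested genes were called higher, beside 19.7% of all genes tested. MMP10 and MMP12 were tested here only because the Sen shControl libraries carried them past the filter, and WTAPP1 shares its reads with MMP1, so neither count is support in itself. MMP1 was 90.2-fold higher (log2 fold change 6.49, edgeR adjusted p = 5.24e-20) and MMP3 259-fold higher with an interval of 110.7 to 799. MMP10 was at least 2.52-fold higher (edgeR adjusted p = 0.00103). In fits of only the 2 groups compared, MMP10 had too few counts to be tested against control after either knockdown. MMP12 passed the test against control with 1 and 5 counts against 0 and 0 (edgeR adjusted p = 0.0324), but not when control replicate 1 or 2 (adjusted p = 0.122 and 0.127), Sen shControl replicate 1 or 2 (0.0633 and 0.0537) or Sen shMETTL14 replicate 2 (0.314) was left out. By level per kb MMP1 still ranked 2 in Sen shMETTL3 and 5 in Sen shMETTL14 among the 11505 genes, while MMP3 ranked 344 and 105.

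The knockdowns differed from each other in MMP3. MMP3 was 3.28-fold higher in Sen shMETTL14 than in Sen shMETTL3 cells (interval 2.90 to 3.70, log2 fold change 1.71, standard error 0.15, edgeR adjusted p = 4.50e-09), and both Sen shMETTL14 libraries were above both Sen shMETTL3 libraries, as they were for 33.5% of all genes tested. The difference of MMP1 did not pass the test (log2 fold change 0.25, standard error 0.14, edgeR adjusted p = 0.148), nor did that of MMP10 (log2 fold change -0.24, standard error 0.56, edgeR adjusted p = 0.771), whose groups overlapped. The counting interval of the MMP10 ratio, 0.374 to 1.87, leaves room for a difference either way. MMP12 passed narrowly, with 1 and 5 counts against 0 and 0 (edgeR adjusted p = 0.0446), and no longer passed without Sen shControl replicate 1 or 2 (adjusted p = 0.0830 and 0.0718), Sen shMETTL3 replicate 1 or 2 (0.0971 and 0.142) or Sen shMETTL14 replicate 2 (0.342). MMP12 was tested here only because the Sen shControl libraries carried it past the filter, and its call was also lost with DESeq2 and with the replicate block. Among all genes tested, 16.5% were called higher in this comparison, as were 2 of the 5 cluster genes, MMP3 and MMP12, a count that is not support in itself. Without Sen shMETTL14 replicate 1 the genes called higher fell from 2118 to 995.

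WTAPP1 could not be separated from the MMP genes that it overlaps. The whole of MMP1 (8325 bases) and 969 bases at the 3′ end of MMP3, or 12.3% of its span, lie within WTAPP1 on the other strand. The shared part of MMP3 holds its exon 10, of which 98 bases are coding and 328 are UTR in GENCODE. WTAPP1 had 80 and 68 counts in control, 9659 and 9225 in Sen shControl, 4720 and 5291 in Sen shMETTL3, and 6151 and 5406 in Sen shMETTL14. In both control libraries these were exactly the counts of MMP1, and over all libraries MMP1 counts came to 93.4% to 100% of those of WTAPP1. The library kit keeps strand, and the table header names a strand setting, yet genes on opposite strands received the same numbers.

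What WTAPP1 held beyond MMP1 followed MMP3. This excess was 0 and 0 counts in control, 431 and 608 in Sen shControl, 25 and 25 in Sen shMETTL3, and 75 and 58 in Sen shMETTL14. In the 6 senescent libraries it was 7.72% to 14.5% of the MMP3 counts, beside the 12.3% of the MMP3 span that WTAPP1 covers. Spread over the 44.765 kb of WTAPP1 outside MMP1, the excess gave at most 13.6 counts per kb, against 1035 counts per kb of MMP1 in the same library. The fold changes of WTAPP1, on the log2 scale 7.38 in senescence, -1.14 in Sen shMETTL3 and -0.87 in Sen shMETTL14, are therefore no evidence of its own transcription, and the part of MMP1 counts that comes from the plus strand cannot be told apart either.

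**Figure D5:**
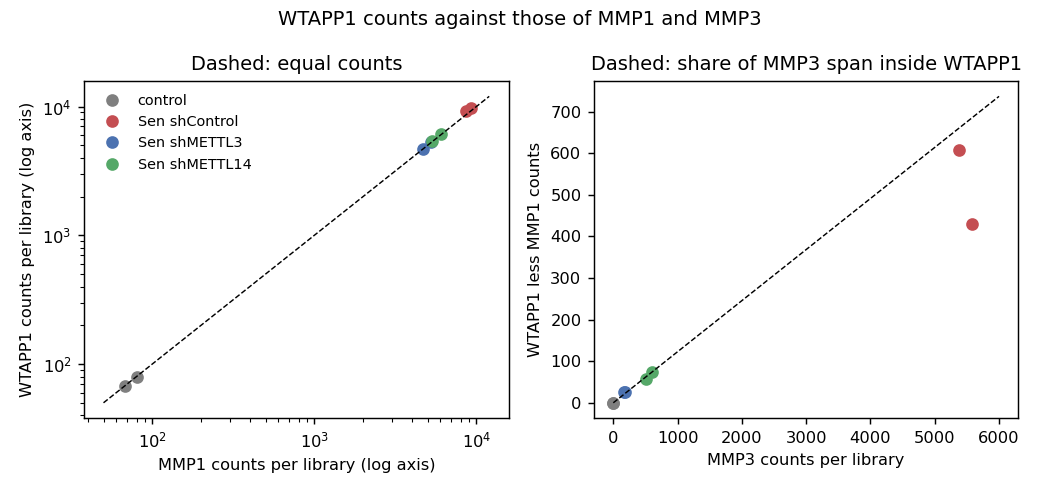
Left, WTAPP1 counts against MMP1 counts in each library on log axes, with the line of equal counts; right, WTAPP1 counts less MMP1 counts against MMP3 counts, with a line at the 12.3% of the MMP3 span that lies in WTAPP1. All libraries lie on or near the first line, and only the Sen shControl libraries, at 431 and 608, fall visibly below the second.

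Genes around the cluster moved in both directions. Of 14 genes within 1000 kb, 9 were tested, with 3 higher and 2 lower in Sen shControl than in control cells, where 13.3% of all genes tested were called in each direction. BIRC3, an inhibitor of apoptosis 181 kb from the nearest cluster gene, rose by 1.77 on the log2 scale (standard error 0.32), with 16 and 21 counts in control and 58 and 39 in Sen shControl. Its neighbour BIRC2 had a log2 fold change of 1.12 and DCUN1D5, a factor for cullin neddylation on the other side, of 0.88. PDGFD, a growth factor gene 951.5 kb away, fell by 2.08, and TRPC6, a cation channel gene, fell by 1.53. After METTL3 knockdown, with 12.3% of all genes tested called higher and 11.2% lower, 1 gene was higher, DYNC2H1 (0.75), and 2 were lower, PDGFD (-1.83) and BIRC3 (-0.80). After METTL14 knockdown, with 9.15% of all genes tested called higher and 12% lower, BIRC3 was higher instead (log2 fold change 1.47, standard error 0.24, edgeR adjusted p = 4.02e-05), with 176 and 127 counts. PDGFD (-3.27), DYNC2H1 (-0.58) and TMEM123 (-0.55) were lower. The falls of PDGFD rest on few counts, 25 and 46 in Sen shControl, 7 and 16 in Sen shMETTL3, and 3 and 5 in Sen shMETTL14. The median log2 fold change of all genes tested was within 0.04 of 0 in these 3 comparisons.

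Of 15 MMP genes outside the cluster 8 were tested, and in senescence 2 were higher and none lower, beside 13.3% of all genes tested in each direction. These were MMP14, a membrane-bound activator of proMMP2, with a log2 fold change of 1.64, and MMP16, another membrane-bound MMP, with 1.5. After METTL3 knockdown MMP19 (-1.88) and MMP2 (-0.83), the latter a gelatinase, were lower and MMP16 (0.53) was higher, beside 11.2% of all genes lower and 12.3% higher. After METTL14 knockdown MMP2 (-1.07) and MMP14 (-1.05) were lower and none was higher, beside 12% and 9.15% of all genes. The median log2 fold change of the 8 genes was 0.23, 0.06 and -0.02 in these 3 comparisons.

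The inhibitors of MMPs moved in both directions. Of 6 genes 5 were tested, and the shares of all genes called in each comparison are those just given. TIMP1 rose in senescence (log2 fold change 2.68), and TIMP3 (-1.56), RECK (-1.11), a membrane-anchored inhibitor, and TIMP2 (-0.69) fell. After METTL3 knockdown 3 were lower, RECK (-0.89), TIMP1 (-0.81) and TIMP2 (-0.44), and none was higher. After METTL14 knockdown TIMP3 (1.42) and TIMP1 (0.53) were higher and RECK (-1.07) and TIMP2 (-0.39) were lower. Of 8 genes that take part in the activation of proMMPs, 4 were tested and all 4 were higher in senescence, beside 13.3% of all genes tested. They were the plasminogen activators PLAT (2.46) and PLAU (1.77), the urokinase receptor PLAUR (2.29), and FURIN (0.81), a proprotein convertase. After METTL3 knockdown PLAUR (-1.14) and FURIN (-1.09) were lower, beside 11.2% of all genes, and after METTL14 knockdown PLAT (-2.52) and PLAU (-0.55) were lower, beside 12%.

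Genes elsewhere in the genome were ranked by the correlation of their levels with those of MMP3 and MMP1 over the 8 libraries. Such a correlation does not weigh the size of a change. Among 3857 genes with a mean of at least 100 normalized counts, outside the cluster, the highest Pearson correlations of log2 normalized counts with MMP3 were those of EPB41L3 (0.998), SH2B3 (0.994), an adaptor of cytokine receptors, and CXCL8 (0.993), the neutrophil chemokine also called interleukin 8. CXCL8 had a mean of 34.5 normalized counts in control, 4803 in Sen shControl, 750 in Sen shMETTL3 and 1026 in Sen shMETTL14. In the same order EPB41L3 had means of 66.8, 226, 125 and 161, and SH2B3 had 108, 341, 198 and 248. MMP3 had 2.18, 6265, 173 and 565, so its changes were far larger than those of EPB41L3 and SH2B3. The highest correlations with MMP1 were those of INHBA-AS1 (0.997), STC1 (0.990), a secreted glycoprotein hormone, and NAV3 (0.988). INHBA-AS1 shares 9189 bases, 10.8% of its span, with the activin gene INHBA on the other strand. INHBA had 131 and 125 counts in control and 1624 and 1586 in Sen shControl, against 46 and 41, then 452 and 407, of INHBA-AS1, and how many of the latter are reads of INHBA was not tested. STC1 had means of 116, 3707, 2877 and 1912 in the same order of groups. NAV3 had 513, 2013, 1709 and 2054.5, so its mean in Sen shMETTL14 was not below that in Sen shControl. MMP1 and MMP3 correlated at 0.940 with each other. These values describe 8 libraries in 4 groups and rest largely on the gap between control and senescent libraries.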

How the data were processed

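The authors aligned fastGRO-seq reads to hg19 and deposited raw counts per gene body, made with HOMER and not normalized, with the 2 replicates of each group kept apart. They name STAR and deepTools 3.3 in their processing notes. Their tracks were scaled to Drosophila spike-in RNA, which was not used here. The study calls the 2 fastGRO-seq experiments biologically independent. How multi-mapped reads were counted is not given in the sources used here. The authors' gene lengths in bases were used for levels per kb.

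The 8 libraries were scaled by TMM and entered 1 quasi-likelihood fit of the 4 groups in edgeR 4.0.16 (R 4.3.3). filterByExpr with a minimum count of 10 kept 12844 genes, and the threshold was a p of 0.05 after Benjamini-Hochberg adjustment. DESeq2 1.42.0, other scalings, no filter, fits of 2 groups, a replicate block and leaving out each library were alternatives. Normalized counts are counts divided by a library's relative effective size. Where all libraries of a group had 0 counts, folds are bounds against 3 counts per library. Ratios carry exact 95% counting intervals.

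Depth ranged from 14897360 to 20306299 counts, or 1513930 to 2048475 outside 21 ribosomal RNA rows. Replicates differed by 1.78 to 7.45 times the sampling noise, so none was a copy. Exons came from GENCODE lifted to GRCh37 and promoters from RefSeq (GRCh38.p14), which held 5 of the 10 genes. All cluster genes were named, with the 3 largest changes past the threshold among other MMPs, inhibitors, activators and neighbours in each comparison (all of them where 5 or fewer passed), and the 3 genes most like MMP1 and MMP3 (0.5 added before log2). Members and lists were chosen with earlier results of these data known.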

Additional observations from a re-analysis of the deposited data

Results flagged for a closer look

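Senescent cells with shMETTL14 and with shMETTL3 were tested directly against each other. Of the 5 cluster genes tested, 2 were called higher in Sen shMETTL14, beside 16.5% of all genes tested. MMP3 was higher in Sen shMETTL14, with a log2 fold change of 1.71. MMP12, with 1 and 5 counts against 0 and 0, had an edgeR adjusted p of 0.0446 and is given no fold. It passed the filter only through the Sen shControl libraries, so the count of called genes is not support in itself. Its call was lost with the replicate block (adjusted p = 0.0570), with DESeq2 (0.0647) and in 5 of the fits that left out a library.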

How the results depend on the processing

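Of 430 values of 29 single-gene comparisons under the alternatives, 414 kept direction and call, 12 lost the call and 4 reversed, and the cause was not tested. The lost calls were all of MMP12, in Sen shMETTL14 against control (5) and against Sen shMETTL3 (7). The reversed values, none past the threshold, were those of Sen shMETTL14 against Sen shMETTL3 for MMP10, at 0.80 without Sen shMETTL3 replicate 1 and 0.023 without Sen shMETTL14 replicate 2 (all leave-one-out values -0.86 to 0.80), and with library size alone for MMP1 (-0.0095) and WTAPP1 (-2.95e-05). The cluster genes called higher in Sen shMETTL14 against control fell from 5 to 3, and in Sen shMETTL3 against control from 4 to 3, in a fit of only the 2 groups compared, where MMP10, and MMP12 in the former, had too few counts to be tested. In Sen shMETTL14 against Sen shMETTL3 they fell from 2 to 1 with DESeq2, in a fit of 2 groups and with the replicate block, and were 1 to 2 when a library was left out. Same-numbered libraries correlated at -0.067 to 0.25 in their deviations between groups. With 2 libraries a group, such values cannot decide whether the numbers pair the libraries. The replicate block gave an edgeR adjusted p of 0.0570 for MMP12 in Sen shMETTL14 against Sen shMETTL3 and changed no other call of a cluster gene. WTAPP1 less the counts of the genes it overlaps had too few counts to be fitted. Without WTAPP1, chosen after seeing the data, the called counts were 1 lower each, apart from Sen shMETTL14 against Sen shMETTL3.

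Over all genes, library size alone gave 752 higher and 5015 lower in senescence (1711 and 1702 with TMM), 5287 and 353 after METTL3 knockdown (1574 and 1434), 3163 and 709 after METTL14 knockdown (1175 and 1545) and 1177 higher in Sen shMETTL14 against Sen shMETTL3 (2118). It shifted the median of all genes by -0.50 in senescence, 0.61 and 0.35 after the knockdowns and -0.26 between them. DESeq2 called 908 lower in senescence, 971 higher and 727 lower after METTL3 knockdown, 568 and 951 after METTL14 knockdown, 1586 lower in Sen shMETTL3 against control (2583) and 1212 higher between the knockdowns. With a library left out, the lowest counts were 1066 higher and 763 lower in senescence (without Sen shControl replicate 1), 769 and 723 after METTL3 knockdown (without Sen shControl replicate 2), and, without Sen shMETTL14 replicate 1, 486 and 784 after METTL14 knockdown, 1738 lower in Sen shMETTL14 against control (2636) and 995 higher and 1409 lower (2399) between the knockdowns. Among the tested genes depth limits MMP10 and MMP12 most, at 12 or fewer counts in each knockdown library.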

Other observations

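MMP3 and MMP10 are close paralogs, and their counted spans share an identical run of 96 bases on the same strand. Of the 36-base windows of MMP10, 0.92% also occur in MMP3. Between the other tested MMP genes and any MMP gene of the cluster, the longest run was 39 bases. There were 24.0 and 24.1 MMP3 counts for each MMP10 count in the Sen shControl libraries, 14.9 and 43.2 in Sen shMETTL3, and 75.5 and 101 in Sen shMETTL14.

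The WTAPP1 of GENCODE starts further out, at chr11:102617699-102707497 in GRCh37 coordinates, and so also spans MMP10, whereas the row counted here does not. Over all WTAPP1 transcripts of GENCODE together, and not its canonical one alone, exons cover 293 bases of MMP1 and 329 of MMP3. CDKN2A, which also marks senescence, did not pass the test in Sen shControl against control (log2 fold change 0.50, edgeR adjusted p = 0.182).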
